A study of Mus musculus with 4 samples.

Results

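The transcripts of 9 genes that shorten the life of cytokine mRNAs or restrain proliferation were followed in mouse regulatory T (Treg) cells held with thymic stromal lymphopoietin (TSLP), an epithelial cytokine, or with phosphate-buffered saline (PBS). The genes were Zfp36, Zfp36l1, Zfp36l2, Zc3h12a, Rc3h1, Rc3h2, Btg1, Btg2 and Tob1, chosen by name from the 24418 genes of the deposited table, and all 9 were found. Treg cells were sorted from the lymph nodes and spleen of mice of the Foxp3 YFP-Cre line, in which Cre and a yellow fluorescent protein are made under the control of the Foxp3 locus, so that every sample carried this allele. They were held for 3 h with PBS (PBS 1 and PBS 2) or with 100 ng/mL TSLP (TSLP 1 and TSLP 2), and neither the labels nor the methods say whether the samples came from separate animals. By the methods, the mice of the study were sex-matched young adults. The p-values therefore measure the spread between these samples, which may be technical.

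The products of these genes act on mRNA after transcription. ZFP36, ZFP36L1 and ZFP36L2 bind AU-rich elements in 3′ untranslated regions (UTRs) of cytokine and growth factor mRNAs and bring in the CCR4-NOT deadenylase. Regnase-1, the product of Zc3h12a, is an endoribonuclease that cuts stem-loops in such regions, while Roquin-1 and Roquin-2, the products of Rc3h1 and Rc3h2, bind stem-loops and also recruit deadenylases. BTG1, BTG2 and TOB1 join deadenylase subunits to mRNA-bound proteins and are known to restrain the proliferation of lymphocytes. In T cells these families are known as brakes on activation.

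Reads on genes numbered 11328132 (PBS 1), 10724392 (PBS 2), 11761234 (TSLP 1) and 10271571 (TSLP 2). The 9 genes had between 1318 and 12916 reads in each library, so that the counting error of a single value was at most 2.75%. This covers counting error only, and the sources used here do not say whether PCR copies were removed. Values below are normalized counts, that is, reads over the library's size factor. PBS 1 stood apart from the other libraries. Over 2635 genes with a mean normalized count of at least 1000, its log2 ratio to the remaining libraries was lower for genes with longer exons (Spearman's rho −0.659). The same measure gave 0.571 for PBS 2, 0.400 for TSLP 1 and 0.307 for TSLP 2. PBS 1 is among the libraries these are set against, so its trend enters their values with the sign reversed. These are descriptions across genes, and genes are no replicates.

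The markers of the sort were present in every library. Cd4, the coreceptor of helper T cells, lay between 512 and 602 cpm, or reads per 1000000 on genes. Foxp3, which defines Treg cells, stood at 222 and 472 cpm in PBS 1 and PBS 2 and at 407 and 470 cpm in TSLP 1 and TSLP 2, and was thus lowest in PBS 1. Ikzf2, a transcription factor of Treg cells, was also lowest there (568, 976, 996 and 953 cpm in the same order). So were the listed markers Il2ra (342, 446, 433 and 498 cpm) and, by less, Cd3e (232, 252, 239 and 261 cpm). Ctla4, the most abundant of the listed T and Treg markers, went the other way. It was highest in PBS 1 (1284, 1142, 1198 and 1253 cpm). Markers of other cells were rare. The 3 B cell markers summed to 0.618, 10.4, 4.08 and 9.35 cpm, with Cd79b the most abundant. The 5 myeloid markers summed to 17.6, 11.9, 8.59 and 8.76 cpm, with Cd68 the most abundant and the macrophage marker Adgre1 at 0. The 2 CD8 T cell markers gave 13.4, 7.83, 8.84 and 12.0 cpm, with Cd8b1 the most abundant. The NK cell marker Ncr1 and the globin genes Hba-a1 and Hbb-bs had 0 reads in all 4 libraries, and the summed NK and erythroid markers reached at most 2.43 and 0.681 cpm. The part of these marker differences in the results was not tested.

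Tristetraprolin, the product of Zfp36, is known to bind AU-rich elements in its own mRNA also, so the 3′ UTRs of the 9 genes were read for the nonamer TTATTTATT and the shorter core TATTTAT. The nonamer occurred once in each of Zfp36, Zfp36l1, Zfp36l2, Rc3h1 and Rc3h2, and was not found in the UTRs of Zc3h12a, Btg1, Btg2 and Tob1. The sites are shown because they are what the ZFP36 proteins recognise, each with its surroundings (mm10, sense strand, nonamer in capitals).
Zfp36, chr7:28376952-28376977, minus strand: tgacgactTTATTTATTgtattaaga
Zfp36l1, chr12:80108168-80108193, minus strand: ctgttggaTTATTTATTttagaaatt
Zfp36l2, chr17:84184915-84184940, minus strand: tatttaacTTATTTATTatcttgtga
Rc3h1, chr1:160970045-160970070, plus strand: tttactcaTTATTTATTgagatgagg
Rc3h2, chr2:37373288-37373313, minus strand: aagacattTTATTTATTttactctgt
In Btg2 only the shorter core was present, and it is in capitals in its window.
Btg2, chr1:134077250-134077275, minus strand: atgaagagcTATTTATacatgttttt

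Of 19359 mouse genes with an annotated 3′ UTR, 7.61% held the nonamer and 27.8% held the core. Long UTRs hold these letters more often, so each gene was also set beside UTRs within 20% of its own length. The nonamer was present in 4.17% of UTRs as long as that of Zfp36 (774 bases), in 9.95% for Zfp36l1 (1835 bases) and in 9.92% for Zfp36l2 (1822 bases). For the far longer UTRs of Rc3h1 (7181 bases) and Rc3h2 (5160 bases) the share was 28.1% and 22.7%. All 3 ZFP36 genes held 3 copies of the core, those within the nonamer included, against 2 in Rc3h1 and 3 in Rc3h2. At least 3 copies were found in 1.28%, 4.17% and 4.16% of UTRs as long as those of Zfp36, Zfp36l1 and Zfp36l2, and in 18.6% for Rc3h2. At least 2 copies were found in 48.8% for Rc3h1. A match of letters is a description and not evidence of binding.

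Promoters were read from 250 bases before to 50 after the RefSeq start (GRCm38.p6), where 8 of the 9 genes had an entry, for sites of factors that cytokine or antigen receptor signals are known to activate. The searched letters, on both strands, were TTCNNNGAA for STAT factors, TGANTCA for AP-1 and TGACGTCA for CREB, together with the CArG box of serum response factor and the NF-kB site. Zfp36 held a CArG box from 58 to 49 bases before its start, found in 1.63% of 32851 promoters, and a STAT site from 17 to 9 bases before it, found in 8.3%. Btg2 held the CREB site from 166 to 159 bases before its start (1.79% of promoters). An AP-1 site (7.81% of promoters) was present in Rc3h1 and Zfp36l1. These windows are shown with the sites in capitals, on the strand of the gene.
Zfp36, chr7:28379229-28379294, minus strand: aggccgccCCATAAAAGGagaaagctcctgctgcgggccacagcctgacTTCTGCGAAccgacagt
Btg2, chr1:134079306-134079329, minus strand: cccaataaTGACGTCAgtgagcga
Rc3h1, chr1:160906270-160906292, plus strand: ggggccggTGACTCAgagctttc
Zfp36l1, chr12:80113128-80113150, minus strand: cgcatggcTGATTCAacctcagt
The NF-kB site (4.51% of promoters) was found in no member, and the windows of Btg1, Rc3h2, Tob1 and Zc3h12a held none of the searched letters. Zfp36l2 was not read. The Zfp36 window lies inside the gene as GENCODE annotates it, since the GENCODE start is upstream of the RefSeq start.

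All 9 genes were well expressed. Their mean normalized counts were higher than those of 83.4% (Zc3h12a) to 99.3% (Zfp36l1) of the genes tested. Per kilobase of the longest coding transcript, the mean level over the 4 libraries was highest for Zfp36l1, at 3799 normalized counts per kb (3668 to 4070). Btg2 followed with 2583 (2189 to 2949), and its range overlapped that of Zfp36l2, with 1941 (1685 to 2352). Btg1, with 1934 (1742 to 2144), overlapped both Zfp36l2 and Zfp36, with 1803 (1517 to 2230). Neighbours in this order, Zfp36l1 apart, thus overlapped, whereas the range of Btg2 lay wholly above that of Btg1. Tob1 came next with 957 (699 to 1185), then Zc3h12a with 522 (472 to 605), Rc3h1 with 306 (238 to 348) and Rc3h2 with 181 (163 to 212). The ranges of these last genes overlapped neither each other nor that of Zfp36. The values of Zfp36 and Rc3h2 depended on the gene model and were 1450 and 82.7 over the union of their exons. The RefSeq start of Zfp36 lies inside the GENCODE gene. Its level and rank with a transcript from that start were not computed. Per unit length, Regnase-1 and the Roquins were therefore the lowest of the 9.

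**Figure D1:**
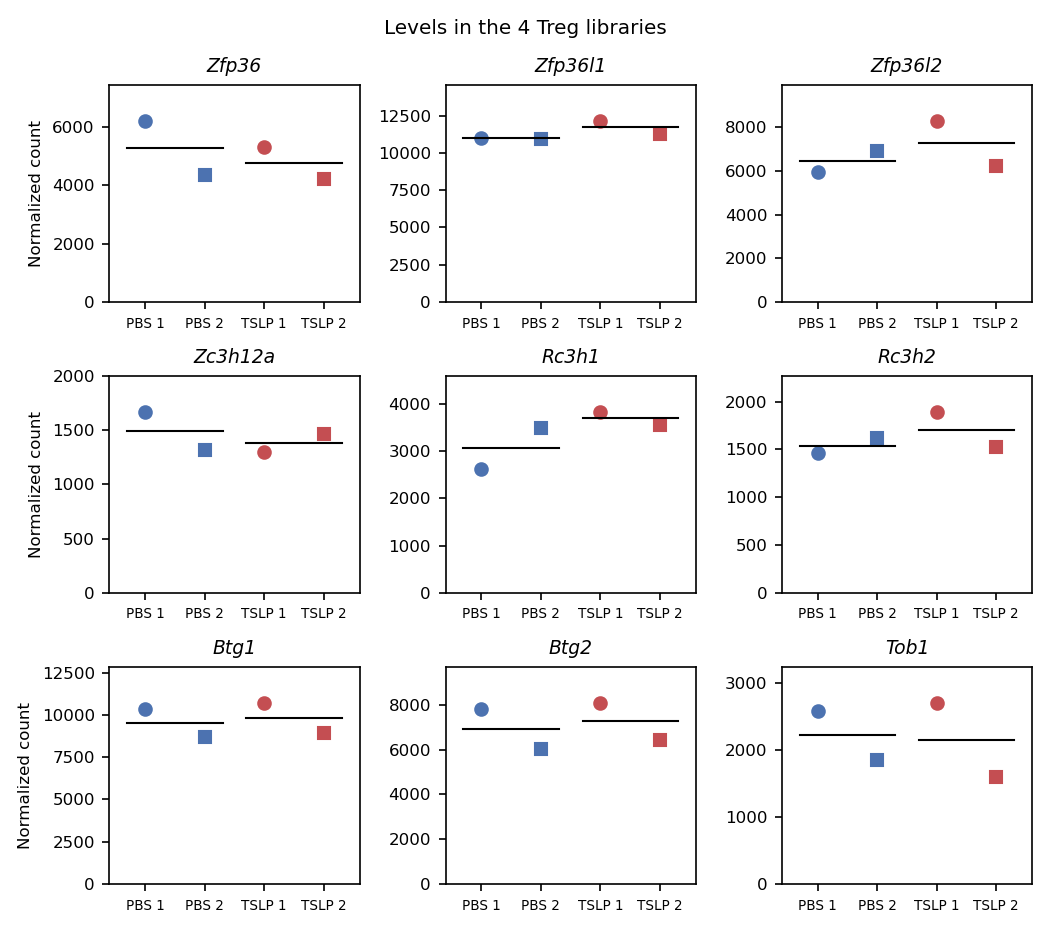
Normalized count of each of the 9 genes in the 4 libraries, on linear axes that start at 0 and differ between panels. Circles are replicate 1 and squares replicate 2, PBS is blue and TSLP red, and black lines are group means. Both TSLP points lie above both PBS points for Zfp36l1 and Rc3h1 only, while in both groups the circle of Tob1 lies well above the square (2593 and 1857 in PBS, 2711 and 1599 in TSLP).

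TSLP and PBS were compared to ask whether the transcripts of these brakes on activation differed after 3 h of the cytokine. By limma with Benjamini-Hochberg adjustment over 11392 genes, 0 genes (0%) had an adjusted p under 0.05, members included, and the smallest adjusted p was 0.9999. edgeR and DESeq2 also called 0. Before adjustment, p lay under 0.05 for 192 genes (1.69%) by limma, 234 by edgeR and 286 by DESeq2, and for 0 of the 9 members by limma. The mean was higher with TSLP in 6 members and lower in 3 (51.2% of all genes tested were higher), with a median log2 fold change of 0.07 against 0.01 over all genes tested. The members' median was −0.08 without PBS 2, −0.04 without TSLP 1, 0.10 without PBS 1 and 0.24 without TSLP 2, so that its direction depended on the library left out. In these bulk samples, fewer cells of a type and less RNA per cell cannot be told apart.

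Among the AU-rich element binding proteins, Zfp36, which encodes tristetraprolin, had normalized counts of 6223 and 4345 in PBS 1 and PBS 2, and of 5323 and 4234 in TSLP 1 and TSLP 2. The values of the other genes follow in this order. The groups overlapped, and replicate 1 was the higher library in each. The means were 5284 ± 1328 with PBS and 4778 ± 770 with TSLP (SD, n = 2), and the log2 fold change was −0.13 (95% interval −0.71 to 0.45, unadjusted p = 0.621 by limma). Zfp36l1, the most abundant of the 9, had 11005, 10969, 12168 and 11299. Both TSLP libraries were above both PBS libraries, by a log2 fold change of 0.09 (−0.44 to 0.63, unadjusted p = 0.701 by limma). This was 0.04 without TSLP 1, 0.15 without TSLP 2 and 0.18 with the trend over exon length removed. Zfp36l2 had 5949, 6930, 8303 and 6226. Its groups overlapped, since PBS 2 was above TSLP 2, with a log2 fold change of 0.16 (−0.39 to 0.72, unadjusted p = 0.522 by limma). Annotated genes on the opposite strand overlap each of these 3 (Gm44710, Gm26669 and AC132455.1). By the methods the library kit was directional, but without a stated strand setting of the counting the reads of either strand cannot be told apart.

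Zc3h12a, which encodes Regnase-1, had normalized counts of 1667, 1319, 1300 and 1466. PBS 1 was the highest library and the TSLP libraries lay on either side of PBS 2, with a log2 fold change of −0.10 (−0.62 to 0.42, unadjusted p = 0.667 by limma). Rc3h1, which encodes Roquin-1, had 2620, 3491, 3827 and 3544. PBS 1 was low, and PBS 2 was just under TSLP 2. Its log2 fold change of 0.28 (−0.24 to 0.81) was the largest of the 9, with the smallest unadjusted p (0.249 by limma). Without PBS 1 it was 0.08 and without PBS 2 it was 0.49 (unadjusted p = 0.605 and 0.0235 by limma). Without PBS 2, 16.3% of all genes tested had an unadjusted p under 0.05. With the trend over exon length removed it was 0.12. Rc3h2, which encodes Roquin-2, had 1463, 1616, 1894 and 1522, and its groups overlapped (log2 fold change of 0.14, −0.37 to 0.65, unadjusted p = 0.543 by limma). Annotated genes on the same strand lie within Rc3h1 (Gm37052, Gm37653 and Gm37809) and Rc3h2 (Snord90), and how reads in them were assigned is not given in the sources used here.

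Among the anti-proliferation genes, Btg1 had normalized counts of 10329, 8713, 10721 and 8918. The values of the groups were interleaved, and the log2 fold change was 0.04 (−0.51 to 0.60, unadjusted p = 0.863 by limma). Its pseudogenes Btg1-ps1 and Btg1-ps2 had 0 reads in all 4 libraries, although reads that match them equally well could have been left uncounted. Btg2 had 7816, 6004, 8089 and 6435. It was interleaved in the same way, with a log2 fold change of 0.07 (−0.49 to 0.64, unadjusted p = 0.771 by limma). Tob1 had 2593, 1857, 2711 and 1599, so that TSLP held both its highest and its lowest value. The log2 fold change was −0.08 (−0.75 to 0.59, unadjusted p = 0.804 by limma).

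Both TSLP libraries were above both PBS libraries in 2 of 9 members (14.5% of all genes tested) and below both in 0 of 9 (14.4%). The ends of the 95% intervals of the 9 members lay between a fold of 0.596 and one of 1.75, and their half-widths came to 1.42- to 1.59-fold. A change smaller than a gene's half-width would not have reached an unadjusted p under 0.05 at this spread. For comparison, the median absolute log2 fold change of the 2716 tested genes with a mean of at least 1000 was 0.15. In 9 of 9 members the larger of the replicate differences exceeded the difference between the group means, as it did in 83.3% of all genes tested.

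**Figure D2:**
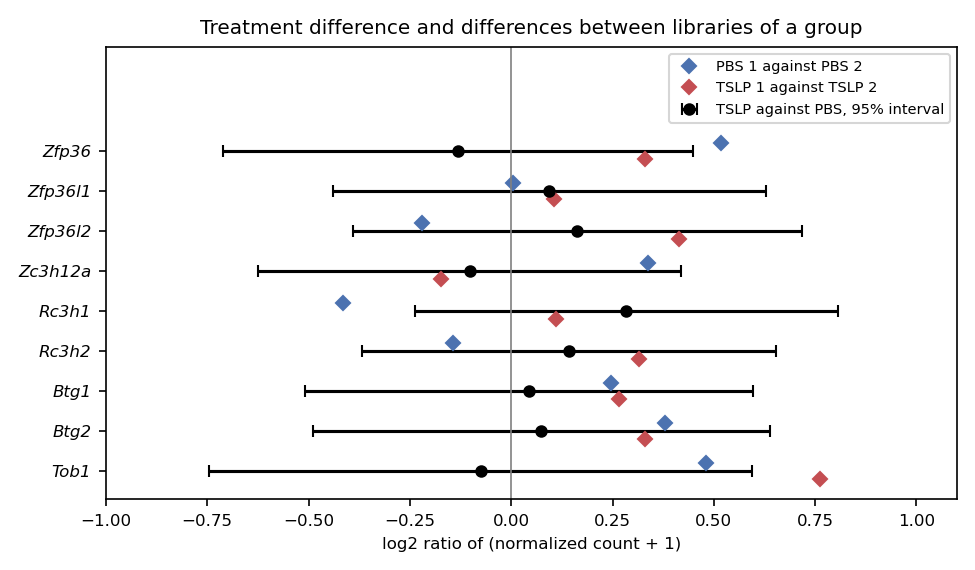
Log2 differences of the 9 genes. Black points are TSLP against PBS with the 95% interval from limma, and diamonds are replicate 1 against replicate 2 within PBS (blue) and TSLP (red); every interval spans 0, and for Tob1 both diamonds lie to the right of 0 (0.48 and 0.76).

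Replicate 1 was then set against replicate 2 within each group, 1 library against 1, which allows no test. The numbers come from the sample titles, which name no shared batch. Replicate 1 was higher in both groups for 5 of 9 members, namely Zfp36, Zfp36l1, Btg1, Btg2 and Tob1 (24% of all genes tested), and lower in both for 0 of 9 (25.6%). The difference was over 1.25-fold in both groups for 3 of 9, Zfp36, Btg2 and Tob1 (8.36%), and over 1.25-fold in the opposite direction for 0 of 9 (9.11%). The members' median log2 ratio of replicate 1 to replicate 2 was 0.25 in PBS and 0.32 in TSLP, against −0.02 and 0.00 over all genes tested. With the trend over exon length removed, the members' medians were 0.13 and 0.29.

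In TSLP, Tob1 differed most between replicates. In PBS Zfp36 did, with a counting interval that overlapped that of Tob1. With the length trend removed, Rc3h2 differed most in PBS (0.57). The trend was taken over the union of exons. For Rc3h2 this is 19624 bases, against 8948 for its longest coding transcript, so its value depends on the gene model. The Tob1 log2 ratio was 0.48 in PBS (counting interval 0.40 to 0.57) and 0.76 in TSLP (0.67 to 0.85), which in size was above 65.5% and 99.4% of the 2716 abundant genes. Zfp36 gave 0.52 in PBS (0.46 to 0.57) and 0.33 in TSLP (0.27 to 0.39), above 68.4% and 84.3% of these genes. Btg2 gave 0.38 and 0.33, and Btg1 gave 0.25 and 0.27. The median absolute log2 ratio of the abundant genes was 0.34 in PBS and 0.15 in TSLP, and the PBS ratio of Btg1 lay under the first of these. Zfp36l1 was nearly level, with 0.00 in PBS (−0.03 to 0.04) and 0.11 in TSLP.

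The remaining members turned with the group. Rc3h1 was lower in replicate 1 of PBS, at −0.41 (−0.49 to −0.34), and higher in that of TSLP, at 0.11. Rc3h2 gave −0.14 and 0.32, and Zfp36l2 gave −0.22 and 0.42. Zc3h12a went the other way, with 0.34 and −0.17. With the trend over exon length removed, Rc3h1 gave 0.00 and 0.07, and Rc3h2 gave 0.57 and 0.29. The PBS difference of Rc3h2 thus changed sign, at the length of its exon union. That of Zfp36l1 did so too, with −0.21 and 0.11, while Zfp36l2 gave −0.34 and 0.42 and Zc3h12a 0.11 and −0.17. Tob1 then gave 0.14 and 0.78, Zfp36 0.39 and 0.33, Btg2 0.13 and 0.33, and Btg1 0.31 and 0.26. The direction of the last 4 genes thus stayed, while Tob1 and Btg2 in PBS fell under a 1.25-fold difference.

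Immediate early genes are induced within minutes of stimulation or of handling cells, and most of the 14 listed moved with the same replicates. Replicate 1 was higher in both groups for 10 of 14 (24% of all genes tested) and lower in both for 1 (25.6%), with a median log2 ratio of 0.63 in PBS and 0.41 in TSLP, or 0.40 and 0.44 with the length trend removed. Their summed level was 10443, 6924, 8526 and 6350 cpm. Nr4a1, an orphan nuclear receptor induced by the T cell receptor, was the most abundant of the list in reads, with 33290, 21014, 28427 and 18613. Junb, an AP-1 subunit and the highest of the list per kb of exon, had 28565, 14782, 21563 and 12528. The AP-1 gene Fos, named after its values were seen, had 10921, 4721, 7941 and 4081. Egr3 had 1127, 1386, 1591 and 1402, lower in replicate 1 of PBS (log2 ratio −0.34) and nearly level in TSLP (0.03). Egr1, also named after its values were seen, was lower in replicate 1 of both groups (−0.15 and −0.15). The 9 members summed to 4523, 4217, 4904 and 4215 cpm. The part of these genes in the replicate differences of Zfp36, Btg1, Btg2 and Tob1 was not tested. Between TSLP and PBS, the list had 0 of 14 genes with an unadjusted p under 0.05 by limma (1.69% of all genes), and its median log2 fold change was −0.27. That median was 0.07 without PBS 1, −0.59 without PBS 2, −0.48 without TSLP 1 and 0.06 without TSLP 2, so its direction rested on PBS 1 and on TSLP 2. With the length trend removed the median was −0.14.

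**Figure D3:**
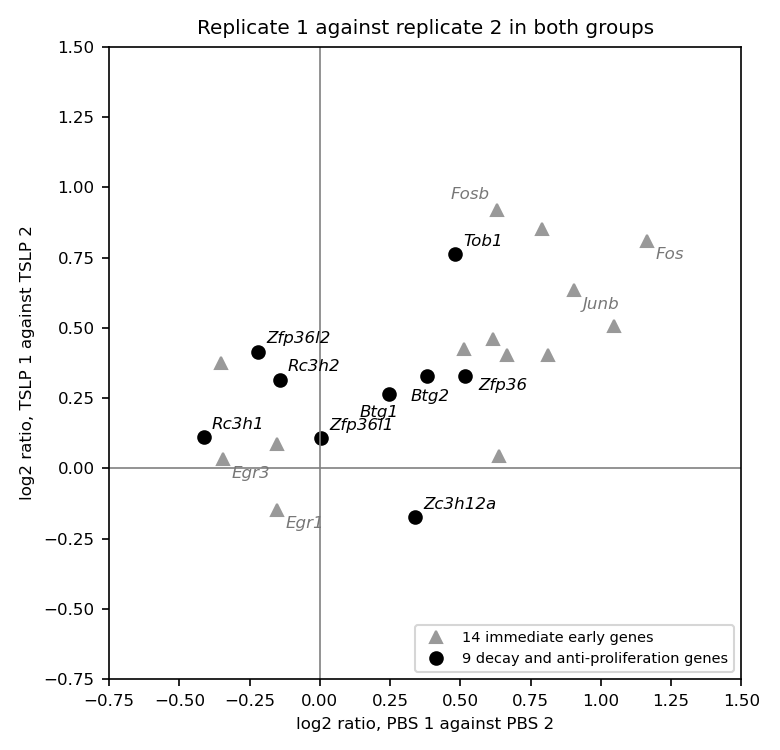
Log2 ratio of replicate 1 to replicate 2 in PBS (horizontal) and in TSLP (vertical), with the 9 genes in black and 14 immediate early genes as grey triangles. Tob1, Zfp36, Btg2 and Btg1 lie to the upper right with most of the triangles, and Rc3h1 (−0.41 and 0.11), Rc3h2 and Zfp36l2 lie in the upper left.

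Tob1 had the widest range of the members over the 4 libraries, 0.76 on the log2 scale. The genes whose centred log2 profile was most like it, among 8173 genes with a mean of at least 100, were Zfp64 (Euclidean distance 0.0475), Pdia4 (0.0675) and 2310022B05Rik (0.0953). Zfp64 encodes a zinc finger protein and had 762, 552, 791 and 487 normalized counts in PBS 1, PBS 2, TSLP 1 and TSLP 2. Pdia4, a protein disulfide isomerase of the endoplasmic reticulum, had 900, 669, 919 and 569. Among the members, the most alike pairs were Zfp36l2 with Rc3h2 (0.0912) and Btg1 with Btg2 (0.110). With 4 libraries, likeness of profiles is a description only.

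Relatives of the members were measured next. Of 8 listed, 5 passed the filter on low values, 0 had an unadjusted p under 0.05 by limma (1.69% of all genes), and the median log2 fold change was 0.13. The median was 0.01 without PBS 1, 0.00 without TSLP 1 and 0.36 without TSLP 2. Zfp36l3 and Btg4 had 0 reads in every library. Tob2, the closest relative of Tob1, had 12066, 10167, 15494 and 9822 reads, and was again higher in replicate 1 of both groups (log2 ratios of 0.20 and 0.51). Zc3h12c, a relative of Regnase-1, had 170 reads in PBS 1 against 397, 549 and 414 in the other libraries. Its log2 fold change was 0.88 (−0.07 to 1.84, unadjusted p = 0.0665 by limma), with both TSLP libraries above both PBS libraries. The p by limma was 0.0438 with the replicate number as a block, 0.0444 with the length trend removed and 0.0302 with both. Without the filter on low values it was 0.0483, and with a filter of 50 it was 0.0445. Pseudocounts of 10 and 0.5 gave 0.0537 and 0.0712, and another scaling gave 0.0670. The p was 0.0975 by edgeR, 0.113 by DESeq2 and 0.175 by limma without a variance trend. Leaving out a library gave 0.00637 without PBS 2 (where 16.3% of all genes lay under 0.05), 0.315 without TSLP 1, 0.194 without TSLP 2 and, with a log2 fold change of 0.25, 0.394 without PBS 1. Zc3h12d and N4bp1, further relatives of Regnase-1, had 1460 to 1763 and 1104 to 1330 reads.

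The deadenylases that ZFP36, Roquin and BTG proteins recruit showed 0 of 14 genes with an unadjusted p under 0.05 by limma (1.69% of all genes). Their median log2 fold change was 0.12, but −0.06 without PBS 1, 0.05 by edgeR and 0.04 with the length trend removed. Cnot1, the scaffold of CCR4-NOT, had 3767 reads in PBS 1 and 6692, 6976 and 6149 in the others (log2 fold change of 0.39). In normalized counts PBS 2 (6695) was above both TSLP libraries (6572 and 6426), so the direction rested on PBS 1. The catalytic subunit Cnot6 was low in PBS 1 as well, with 2313 reads against 3817, 3773 and 3396. Cnot11, another subunit, had 525, 546, 649 and 648 reads, so that both TSLP libraries were above both PBS libraries (0.29). The reverse order was found for Cnot2, with 1891, 1707, 1784 and 1516 reads and normalized values of 1833, 1708, 1681 and 1584 (−0.12).

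For decapping and decay from the 5′ end, 0 of 19 genes tested had an unadjusted p under 0.05 by limma (1.69% of all genes). The median log2 fold change of 0.11 was −0.08 without PBS 1 and 0.06 with the length trend removed. The scavenger decapping enzyme Dcps had 267 and 227 reads in the PBS libraries against 168 and 160 after TSLP (−0.57, −1.41 to 0.27, unadjusted p = 0.158 by limma). Smg1, a kinase of nonsense-mediated decay with a long transcript, had 4204 reads in PBS 1 and 10801, 10097 and 9625 in the others. Lsm3, of the ring that binds deadenylated ends, had 434, 285, 341 and 182, higher in replicate 1 of both groups. Pnrc1, a cofactor of decapping, was the most abundant per kb of exon in the list, with 12709, 7549, 9380 and 7362 reads.

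The exosome and its cofactors, which degrade RNA from the 3′ end, had 1 of 15 genes with an unadjusted p under 0.05 by limma (1.69% of all genes). Their median log2 fold change was 0.16, and it lay between 0.08 (without PBS 2) and 0.31 (without TSLP 1) when a library was left out. The gene was Ttc37, a subunit of the cytoplasmic SKI complex, which had 139 and 163 reads in the PBS libraries against 264 and 344 after TSLP (log2 fold change of 1.01, 0.13 to 1.88, unadjusted p = 0.0282 and adjusted p = 0.9999 by limma). The unadjusted p was 0.0193 by edgeR and 0.0392 by DESeq2, and it stayed under 0.05 with other pseudocounts, filters and scalings, with the replicate block and without PBS 2. It was 0.0915 without PBS 1, 0.0560 without TSLP 1, 0.215 without TSLP 2 and 0.0501 with the length trend removed (0.0604 with the block also), where the log2 fold change was 0.87, 1.27, 0.74 and 0.83. Skiv2l, the helicase of the same complex, had a log2 fold change of 0.01. Exosc8, a core subunit, had 837 and 758 reads in the PBS libraries against 675 and 571 after TSLP (−0.35, unadjusted p = 0.184 by limma). Exosc3, also of the core, had 284, 261, 394 and 319 (0.39), and the nuclease Dis3 had 288, 470, 482 and 516 (0.45). For Dis3, the normalized count was low in PBS 1 (279), while PBS 2 (470) lay between TSLP 1 (454) and TSLP 2 (539).

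Proteins that bind the same elements or stabilise mRNA gave 0 of 13 genes with an unadjusted p under 0.05 by limma (1.69% of all genes). Their median log2 fold change was 0.00, and −0.06 without PBS 1, 0.06 without TSLP 2 and −0.10 with the length trend removed. Pabpc1, which coats poly(A) tails, had 21075, 21787, 27166 and 22564 reads (log2 fold change of 0.22). Tial1, an AU-rich element binding protein, was lower in both TSLP libraries (normalized counts of 1852 and 1736 with PBS, 1637 and 1352 with TSLP, −0.27). Ptbp1, which binds pyrimidine-rich stretches, and Pabpc4 had log2 fold changes of −0.06 and −0.30.

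Signalling proteins that set the activity of the decay factors gave 0 of 9 genes with an unadjusted p under 0.05 by limma (1.69% of all genes), with 2 higher, 7 lower and a median log2 fold change of −0.09. The median was −0.22 without PBS 2 and also without TSLP 1, and −0.05 without TSLP 2. Dusp1, a phosphatase that switches off p38, had 8078, 5367, 6896 and 4750 reads and was, as Zfp36, higher in replicate 1 of both groups. The p38 gene Mapk14 had 2335, 2097, 2089 and 1650 (−0.24). The kinases Mapkapk2 and Mapkapk3, known to phosphorylate tristetraprolin downstream of p38, had log2 fold changes of −0.09 and −0.24.

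Transcripts known as targets of these factors were measured last. Of 28 listed, 22 passed the filter, with 11 higher, 11 lower and a median log2 fold change of 0.01, which was 0.10 without PBS 1 and −0.11 without PBS 2. Il13, a type 2 cytokine gene, was the single gene with an unadjusted p under 0.05 (0.0447 by limma, against 1.69% of all genes), with 0 reads in both PBS libraries and 25 and 29 with TSLP. It passed the filter only through the TSLP libraries, so its call is no support. The p was 0.0517 with a pseudocount of 0.5, 0.0504 with the replicate block, 0.0822 without TSLP 1 and 0.115 without TSLP 2, and it stayed under 0.05 with the other alternatives that gave it a value (0.0211 by edgeR and 0.00281 by DESeq2). Rel, an NF-kB subunit whose mRNA Regnase-1 and Roquin are known to restrain, had 2954 reads in PBS 1 and 5285, 6500 and 4692 in the others (log2 fold change of 0.49, −0.20 to 1.18, unadjusted p = 0.141 by limma). Its size rested on PBS 1, since the normalized count of PBS 2 (5288) lay between those of TSLP 1 (6124) and TSLP 2 (4903). Il10, an anti-inflammatory cytokine gene, had 701, 456, 340 and 464 (−0.50, −1.25 to 0.25, unadjusted p = 0.167 by limma). Ctla4, an inhibitory receptor, had 14544, 12245, 14091 and 12870 (0.02), and the costimulatory receptor Tnfrsf4 had 8550, 5336, 6681 and 6601 (−0.01). Of the 22 targets, 8 were higher in replicate 1 of both groups and 2 were lower (24% and 25.6% of all genes tested). The 2 lower ones were Il2ra (log2 ratios of −0.35 in PBS and −0.15 in TSLP) and Irf4 (−0.18 and −0.05). Tnf and Nfkbid, like these named after their values were seen, are among the 8. Tnf, the classic target of tristetraprolin, had 1316, 812, 991 and 607 reads, and Nfkbid, an NF-kB regulator, had 9669, 6000, 7543 and 4258.

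A wider set of candidate targets was formed after the values had been seen, from all 807 tested genes with the nonamer TTATTTATT in the 3′ UTR. Of these, 7 (0.867%) had an unadjusted p under 0.05 by limma, 4 higher and 3 lower, against 1.65% of the 9975 tested genes with an annotated 3′ UTR. The mean was higher with TSLP in 56.6% of the 807 and in 51.9% of the 9975, with medians of 0.05 and 0.02. The 807 had longer exons (median 6020 bases against 4658). With the length trend removed the medians were 0.00 and 0.01, and without PBS 1 they were −0.04 and −0.01. Of the 1046 tested genes with at least 2 copies of TATTTAT, 64.4% had a higher mean with TSLP and 0.956% an unadjusted p under 0.05 by limma. Their median log2 fold change was 0.11, with 0.04 once the length trend was removed and −0.01 without PBS 1, and their median exon length was 6770 bases.

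**Figure D4:**
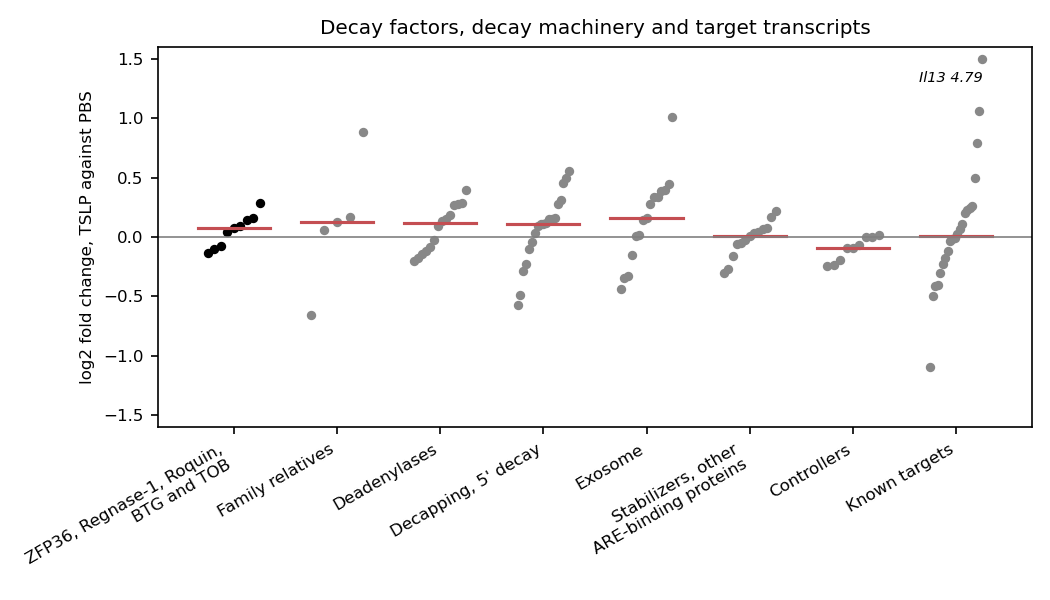
Log2 fold change of TSLP against PBS for each tested gene of 8 lists, with the 9 decay and anti-proliferation genes in black and red bars at the medians. The black points stay between −0.13 and 0.28. The medians of the lists lie between −0.09 and 0.16, and the immediate early genes (median −0.27) are not drawn. Il13, at 4.79 on the log2(normalized count + 1) scale and with 0 reads in PBS, is drawn at the edge.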

How the data were processed

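RNA of sorted mouse Treg cells was sequenced from 2 samples of either group. Single-end reads had been aligned to mm10 (HISAT2) and assigned to genes (HTSeq), and the submitters' processing notes also name DESeq2. The gene annotation and the strand setting of the counting are not given in the sources used here. The deposited table holds a normalized signal: the authors scaled each library's reads by its own size factor (0.957 to 1.06). All values (100%) lay within 0.01 of a whole multiple of 1 read, so the reads were recovered. In a library, 0 reads allow up to 3 reads, or 0.255 to 0.292 cpm. Names of 27 genes had turned into dates.

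The authors' unit is not a raw count, so limma on log2(normalized count + 1), with a variance trend, was the main test, over genes that reached a normalized count of 10 in 2 or more libraries. This scale understates changes of low genes. The recovered reads served for edgeR and DESeq2 as alternatives. The steps were tested on simulated data. Other alternatives were other pseudocounts, filters and scalings, a replicate block, removal of the length trend by loess, and leaving out each library.

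The members and lists were chosen with earlier results of these data known. Named genes were the 9 members and, of each list, the 3 with the smallest p, any with an unadjusted p under 0.05 and the 2 highest per kb of exon, and the 3 genes most like the member of widest range. Not all of these are printed, and others are said to be named after their values were seen. Positions, lengths and 3′ UTRs came from GENCODE M21 (mm10), where 23307 gene names had a unique exon length, and promoters from RefSeq GRCm38.p6. Software versions were limma 3.58.1, DESeq2 1.42.0 and edgeR 4.0.16 under R 4.3.3.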

Additional observations from a re-analysis of the deposited data

How the results depend on the processing

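Across 11 alternatives that kept all 4 libraries, 0 of the 9 members had an unadjusted p under 0.05, and 4 of 99 log2 fold changes changed sign. These were Rc3h2 (−0.14) and Tob1 (0.054) with the length trend removed, each with and without the replicate block. For Rc3h2 the length used was that of its exon union, which is far longer than its longest coding transcript. The number of genes with an unadjusted p under 0.05, 192 by limma, was 427 without a variance trend, 358 with no filter on low values, and 388 with the replicate block and the length trend removed. With the replicate block alone it was 258, and Rc3h1 had an unadjusted p of 0.288 by limma. The replicate differences of PBS and TSLP were uncorrelated across genes (r = 0.0007 over 11392 genes, 0.0931 over 2716 abundant genes), and no label pairs the samples, so the numbers were read as names.

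Leaving out a library left 1 in its group, which was assumed to vary like the others. The number of genes with an unadjusted p under 0.05 then ranged from 79 (without TSLP 2) to 1858 (without PBS 2), and that of members from 0 to 1 (Rc3h1, 0.49, without PBS 2). The log2 fold change ranged from −0.39 to 0.13 for Zfp36, −0.27 to 0.066 for Zc3h12a, −0.46 to 0.31 for Tob1, −0.089 to 0.18 for Btg1, −0.12 to 0.27 for Btg2, −0.044 to 0.37 for Zfp36l2 and −0.015 to 0.30 for Rc3h2. The members' median ranged from −0.08 to 0.24. The cause was not tested. Depth added a counting error of at most 2.75% to a member's value.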
